A study of Homo sapiens with 18 samples.

Results

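The genes described here are 10 members of the BCL2 family, the proteins that set whether mitochondria release the signals of apoptosis. They were chosen by name: the rows of the expression table whose Ensembl ID maps to the symbols BCL2, BCL2L1, MCL1, BCL2A1, BCL2L11, BMF, BBC3, PMAIP1, BAX and BAK1. All 10 were found among the 60658 rows of the table. The choice of these genes was made with earlier results of these data known.

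The samples were cultures of THP1, a human acute myeloid leukaemia line whose own NRAS allele is labelled heterozygous NRAS-G12D, and of B11, a subclone of THP1 labelled heterozygous NRAS-G12V. B11 was made by giving THP1 cells a doxycycline-inducible NRAS-G12V with GFP that resists the guide RNAs used next, sorting GFP-positive cells, and then introducing Cas9, puromycin resistance and a pair of guides on either side of the start codon of the endogenous NRAS. Each line was divided over 9 plates, with 3 plates at each of 0, 1 and 10 ug/ml doxycycline for 5 days, which gives 6 groups of 3 libraries and 18 libraries in all. B11 is a single clone, so every comparison of B11 with THP1 compares 1 clone with its parent line, and the p-values measure the spread between plates. THP1 received the same doxycycline but no inducible construct is described for it in the labels.

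Members of the family act by binding each other at the outer mitochondrial membrane. The survival proteins BCL2, BCL-XL (the product of BCL2L1), MCL1 and BFL1 (the product of BCL2A1) hold the other members in check. The BH3-only proteins BIM (BCL2L11), BMF, PUMA (BBC3) and NOXA (PMAIP1) relay stress and loss of growth signals by occupying the survival proteins, and the effectors BAX and BAK1 form the pores through which cytochrome c leaves. In myeloid leukaemia cells, survival commonly rests on BCL2 and MCL1, and signalling through RAS and ERK is known to reach several of these proteins after translation, which RNA levels do not show.

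Levels are in FPKM, which divides a gene's fragments by transcript length in kilobases and by depth, so levels of different genes are compared per length. Changes are differences of mean log2(FPKM + 1) with their standard error (SE), from a single limma fit over the 17555 genes that reached 1 FPKM in at least 3 libraries. A gene is called at a Benjamini-Hochberg adjusted p under 0.05 over those genes, and all adjusted p-values below are of that fit. Of the 10 members, 9 passed the filter; BCL2A1 did not and is described by its values. RNA was taken from whole plates, in which fewer cells of a type and less RNA per cell cannot be told apart.

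Facts of the whole series were as follows. Depth was estimated at 10.6 to 15.4 M fragments a library, Pearson's r across genes between replicates lay between 0.94 and 0.96, and no library was a copy of another. In the B11 libraries B and C at 1 ug/ml, 1 unnamed ID took 6.51% and 3.76% of the summed FPKM, and it was at or near 0 elsewhere; results at that dose are therefore also given without both libraries where a call changed. The B11 level of NRAS went from 21.0 FPKM without drug to 23.8 at the low and 28.0 at the high dose, a rise of 0.40 (SE 0.07, adjusted p = 0.000276) over the whole range, against 23.3, 23.4 and 24.2 FPKM in THP1. The table gives 1 value per gene and does not separate the endogenous NRAS from the inducible copy. Markers of myeloid cells were present in all libraries, with a summed FPKM over 10 markers of 2929 to 3633 in THP1, 9047 to 10819 in untreated B11, 4390 to 4695 with 1 ug/ml and 3810 to 3896 with 10 ug/ml. CD14 did not pass 1.30 FPKM in untreated B11 or in B11 at the high dose. The sum in untreated B11 was carried by ELANE, at a mean of 6490 FPKM against 1919 in untreated THP1, and LYZ, at 2781 against 731. ITGAM and FCGR1A went the other way, at means of 3.37 and 21.4 FPKM in untreated B11 and 19.4 and 80.2 in untreated THP1. In B11 they stood at 27.9 and 68.7 FPKM with 1 ug/ml and at 11.3 and 48.8 with 10 ug/ml. CSF1R fell in B11 from a mean of 174 FPKM untreated to 43.5 with 1 ug/ml and 14.1 with 10 ug/ml, beside 71.8 in untreated THP1. These markers moved between the same B11 groups in which family members changed, in both directions, and their part in the results was not tested. Markers of T, B, erythroid, platelet, epithelial and fibroblast cells summed to between 3.33 and 13.7 FPKM over 12 genes.

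The family in B11 is described first across doxycycline doses. Against untreated B11, 8 of the 9 tested members were called at 10 ug/ml, 6 higher and 2 lower, in a comparison in which 42.8% of all genes tested were called. At 1 ug/ml 7 were called, 6 higher and 1 lower, where 37.1% of all genes were called. MCL1, BAX and BAK1 lost that call without libraries B and C of that group, which leaves 1 library there. The median change of the 9 members was 0.30 at 10 ug/ml and 0.22 at 1 ug/ml, against -0.02 and -0.01 over all genes tested. In THP1 no member was called: 0 of 9 at 10 against 0 ug/ml, where 1.02% of all genes were called, 0 of 9 at 1 against 0 ug/ml, where 0.0114% were, and 0 of 9 at 10 against 1 ug/ml, where 0.296% were. At an unadjusted p under 0.05 in limma, 1, 1 and 2 members passed in those 3 THP1 comparisons. Members with roles on both sides of the balance were among those that rose in B11. Survival genes BCL2 and MCL1, the BH3-only genes BBC3 and PMAIP1 and both effectors were higher at 10 ug/ml, while the BH3-only genes BMF and BCL2L11 were lower.

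**Figure D1:**
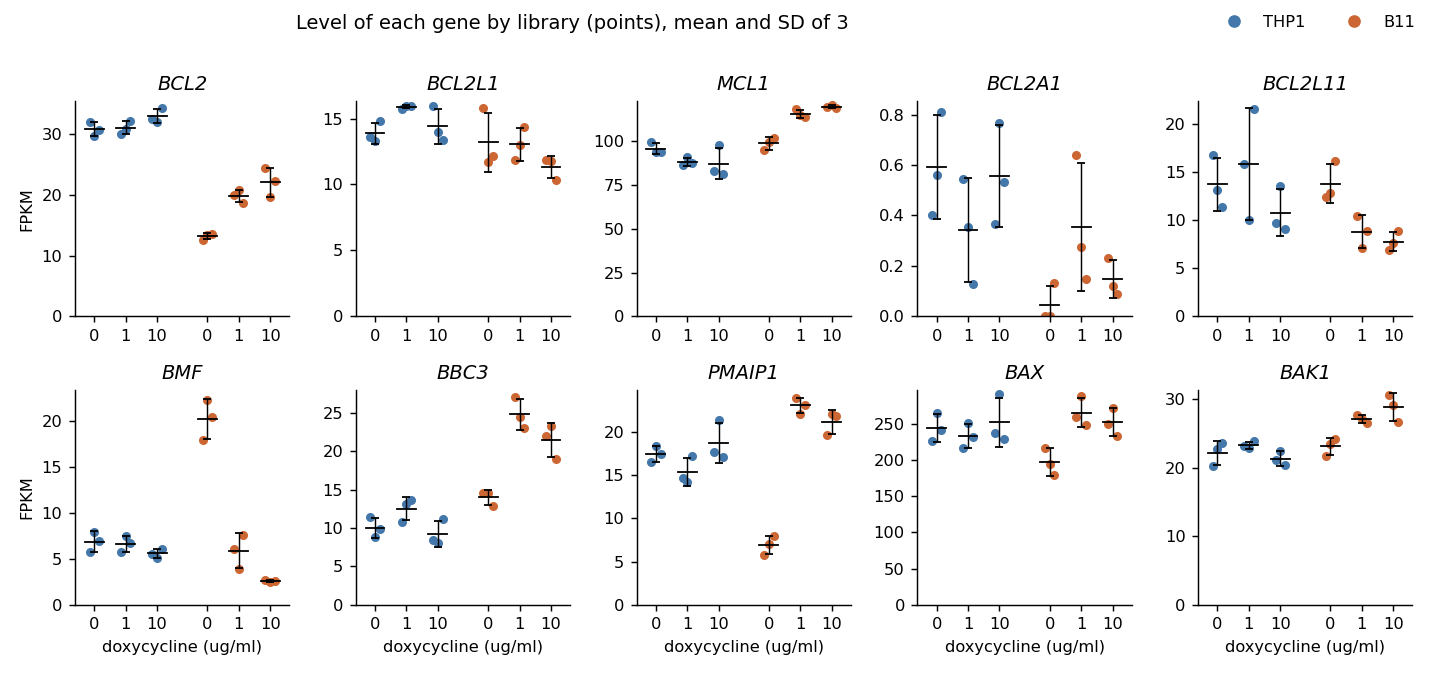
Level of each of the 10 genes in FPKM (vertical axis, from 0) in every library, by doxycycline dose in ug/ml, with THP1 in blue and B11 in orange; points are libraries, bars the mean and SD of 3. BMF stood highest and PMAIP1 and BCL2 lowest in untreated B11. No tested gene was called between the THP1 doses, although the THP1 means of BCL2L11 ran from 10.8 to 15.8 FPKM.

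Among the survival genes, BCL2 was lowest in untreated B11 and stayed below THP1 at every dose. Its libraries A, B and C stood at 12.6, 13.5 and 13.6 FPKM in untreated B11, at 20.0, 20.8 and 18.7 at 1 ug/ml, and at 24.5, 19.6 and 22.3 at 10 ug/ml. In THP1 they stood at 32.1, 29.8 and 30.7 FPKM untreated, at 30.1, 30.9 and 32.3 at 1 ug/ml, and at 32.6, 32.1 and 34.4 at 10 ug/ml. All 9 B11 libraries lay below all 9 THP1 libraries, and untreated B11 did not overlap with either treated B11 group. BCL2 RNA was therefore 1.67-fold higher at 10 than at 0 ug/ml in B11 (change 0.70, SE 0.08, adjusted p = 6.0e-06) and 1.50-fold higher at 1 ug/ml (0.55, SE 0.08, adjusted p = 7.48e-05). The treated B11 groups overlapped, and their difference of 0.15 had a 95% interval of -0.03 to 0.32.

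In THP1, BCL2 changed by 0.10 at 10 ug/ml, with an interval of -0.08 to 0.27, and was not called. Untreated B11 held 2.33-fold less BCL2 than untreated THP1 (-1.16, SE 0.08, adjusted p = 2.12e-08). At 1 ug/ml the difference was -0.63 (SE 0.08) and at 10 ug/ml -0.56 (SE 0.08), both called. In order, the BCL2 groups ran from THP1 at 10, 1 and 0 ug/ml, which overlapped as neighbours, to B11 at 10 and 1 ug/ml, which overlapped with each other, and then to untreated B11, apart from its neighbour.

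MCL1, whose protein is short-lived and is the main partner of NOXA, was the most abundant survival gene per length in every group. In untreated B11 its libraries were at 94.9, 99.5 and 102 FPKM, at 1 ug/ml at 118, 115 and 114, and at 10 ug/ml at 120, 121 and 119. In THP1 they were at 99.4, 93.9 and 93.8 FPKM untreated, at 86.6, 90.9 and 87.5 at 1 ug/ml, and at 82.7, 97.6 and 81.3 at 10 ug/ml. The treated B11 libraries lay above all others, while untreated B11 overlapped with untreated THP1. MCL1 rose 1.21-fold in B11 at 10 ug/ml (0.27, SE 0.06, adjusted p = 0.00261) and 1.17-fold at 1 ug/ml (0.22, SE 0.06, adjusted p = 0.0117). Without B11 libraries B and C at 1 ug/ml, the change of MCL1 at that dose was 0.26 and was not called (adjusted p = 0.0759, in a range of 0.00181 to 0.0759 over the alternatives). Against THP1, MCL1 did not differ beyond the spread in untreated cells (0.05, 95% interval -0.09 to 0.18), and was higher in B11 at 1 ug/ml (0.38, SE 0.06) and at 10 ug/ml (0.46, SE 0.06).

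BCL2L1, which encodes the long-lived survival protein BCL-XL, had no called change with dose in either line. Its group means ran from 15.9 FPKM in THP1 at 1 ug/ml to 11.3 in B11 at 10 ug/ml, and each group overlapped with the next in that order. In B11 the change was -0.20 at 10 ug/ml, with an interval of -0.44 to 0.05. The difference between the lines at 10 ug/ml, -0.32 (SE 0.11, adjusted p = 0.0436), was called but close to the threshold. Of 28 alternatives for BCL2L1 there, 16 ended the call, 12 of them leaving out 1 library (any THP1 library at 0 or 1 ug/ml, THP1 A or B at 10, B11 B at 1, or any B11 library at 10), with adjusted p from 0.0129 to 0.162; the highest came without THP1 library A at 10 ug/ml, at a difference of -0.25. The exons of BCL2L1 overlap 1424 bases of ABALON on the opposite strand, and the sources used here do not say whether the counting used strand.

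BCL2A1, an NF-kB target that serves as a survival gene in many myeloid cells, was hardly seen. Its highest library was at 0.810 FPKM, untreated THP1 C, which corresponds to an estimated 12.6 fragments. Untreated B11 libraries A and B were listed at 0 and library C at 0.134 FPKM, an estimated 1.57 fragments. The other libraries lay between, with group means of 0.592, 0.342 and 0.556 FPKM in THP1 and 0.354 and 0.147 in treated B11. Differences at this depth rest on a few fragments and are not read further.

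The survival transcripts were thus shared differently in the lines. BCL2 made up 21.9% ± 0.213 (SD, n = 3) of the summed FPKM of the 4 survival genes in untreated THP1 and 10.6% ± 0.301 in untreated B11, 13.3% ± 0.621 in B11 at the low dose and 14.4% ± 1.40 at the high dose. MCL1 made up 67.8% ± 0.778 in untreated THP1 and between 77.7% and 78.9% in the B11 groups. BCL2L1 made up 10.6% ± 1.95 in untreated B11, from 9.39% to 12.8% by library, and 9.86% ± 0.623 in untreated THP1.

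Among the BH3-only genes, BMF and PMAIP1 moved in opposite directions in B11. BMF, whose protein is held at the actin motor complexes and freed by loss of attachment or growth signals, fell with doxycycline. PMAIP1, a p53 target also switched on by ATF4, rose. Both ran against THP1 in the untreated clone, BMF above it and PMAIP1 below.

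BMF was at 17.9, 22.3 and 20.4 FPKM in the untreated B11 libraries, at 6.10, 3.93 and 7.64 at 1 ug/ml, and at 2.71, 2.46 and 2.58 at 10 ug/ml. In THP1 it was at 5.72, 7.97 and 6.95 FPKM untreated, at 5.71, 7.44 and 6.67 at 1 ug/ml, and at 5.54, 5.12 and 6.11 at 10 ug/ml. The untreated B11 libraries lay above all 15 others, the B11 libraries at 10 ug/ml lay below all others, and B11 at 1 ug/ml overlapped with all 3 THP1 groups. BMF was 7.82-fold lower at 10 than at 0 ug/ml in B11 (-2.56, SE 0.18, adjusted p = 2.47e-08) and 3.43-fold lower at 1 ug/ml (-1.66, SE 0.18, adjusted p = 3.51e-06).

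The further fall of BMF from 1 to 10 ug/ml, -0.91 (SE 0.18, adjusted p = 0.00383), made BMF the 1 member of 9 called between the doses in B11, where 12.8% of all genes tested were called. Fitted on those 2 groups alone, BMF had the same difference and was not called (adjusted p = 0.065, in a range of 0.000589 to 0.065 over the alternatives). In THP1, BMF changed by -0.25 at 10 ug/ml with an interval of -0.63 to 0.13. Against THP1, BMF was 2.94-fold higher in untreated B11 (1.43, SE 0.18, adjusted p = 9.72e-06). At 1 ug/ml the lines did not differ in BMF beyond the spread (-0.17, interval -0.56 to 0.21), and at 10 ug/ml BMF was 2.16-fold lower in B11 (-0.88, SE 0.18, adjusted p = 0.00149). BMF-AS1 overlaps 461 exonic bases of BMF on the opposite strand.

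PMAIP1 was at 5.77, 7.05 and 7.92 FPKM in the untreated B11 libraries, at 23.9, 22.2 and 23.2 at 1 ug/ml, and at 19.6, 22.1 and 21.8 at 10 ug/ml. In THP1 it was at 16.5, 18.4 and 17.5 FPKM untreated, at 14.7, 14.3 and 17.2 at 1 ug/ml, and at 17.8, 21.5 and 17.1 at 10 ug/ml. Untreated B11 lay below every other library, and B11 at 1 ug/ml lay above every other library. PMAIP1 was 3.34-fold higher at 1 than at 0 ug/ml in B11 (1.62, SE 0.12, adjusted p = 3.96e-08) and 3.06-fold higher at 10 ug/ml (1.49, SE 0.12, adjusted p = 7.03e-08). The step from 1 to 10 ug/ml was -0.12 (interval -0.37 to 0.13) and was not called.

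In THP1, PMAIP1 changed by 0.09 at 10 ug/ml (interval -0.15 to 0.34). It was 2.53-fold lower in untreated B11 than in untreated THP1 (-1.23, SE 0.12, adjusted p = 5.02e-07), 1.50-fold higher in B11 at 1 ug/ml (0.56, SE 0.12, adjusted p = 0.00184), and not called at 10 ug/ml (0.17, interval -0.08 to 0.42). The NOXA transcript of the clone thus stood below the parent without doxycycline and above it at 1 ug/ml.

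BBC3, the gene of PUMA and a p53 target, was higher in B11 than in THP1 at every dose. Its libraries were at 14.6, 14.6 and 12.9 FPKM in untreated B11, at 27.0, 24.4 and 23.0 at 1 ug/ml, and at 22.0, 23.3 and 19.0 at 10 ug/ml. In THP1 they were at 11.4, 8.81 and 9.85 FPKM untreated, at 10.8, 13.1 and 13.7 at 1 ug/ml, and at 8.40, 8.06 and 11.2 at 10 ug/ml. The treated B11 libraries lay above all others, and untreated B11 overlapped with THP1 at 1 ug/ml. BBC3 rose 1.77-fold in B11 at 1 ug/ml (0.78, SE 0.13, adjusted p = 0.000305) and 1.53-fold at 10 ug/ml (0.58, SE 0.13, adjusted p = 0.00284), and the treated groups overlapped.

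Between the lines, BBC3 was higher in B11 by 0.93 at 1 ug/ml (SE 0.13, adjusted p = 9.96e-05) and by 1.14 at 10 ug/ml (SE 0.13, adjusted p = 1.26e-05). In untreated cells the difference of BBC3 was 0.45 (SE 0.13, adjusted p = 0.0123). That call was lost for BBC3 when each library was scaled to the same FPKM sum (0.32, adjusted p = 0.0997) and without THP1 library B (0.37, adjusted p = 0.059), in a range of 0.00627 to 0.0997 over the alternatives. In THP1, BBC3 changed by 0.30 at 1 ug/ml (interval 0.01 to 0.59, adjusted p = 0.915) and by -0.11 at 10 ug/ml, neither called.

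BCL2L11, the gene of BIM, had the widest spread of the BH3-only genes. Its libraries were at 12.5, 12.8 and 16.2 FPKM in untreated B11, at 10.5, 7.11 and 8.87 at 1 ug/ml, and at 6.85, 7.61 and 8.84 at 10 ug/ml. In THP1 they were at 16.8, 13.2 and 11.4 FPKM untreated, at 15.9, 9.99 and 21.6 at 1 ug/ml, and at 9.72, 13.6 and 9.11 at 10 ug/ml. Neighbouring groups overlapped throughout the order, although untreated B11 lay above both treated B11 groups. BCL2L11 fell 1.78-fold in B11 at 10 ug/ml (-0.75, SE 0.24, adjusted p = 0.0175), a call lost for BCL2L11 without untreated B11 library C (-0.64, adjusted p = 0.0694) or without B11 library A at 10 ug/ml (-0.68, adjusted p = 0.0611), in a range of 0.0057 to 0.0694.

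At 1 ug/ml the change of BCL2L11 in B11 was -0.60 (SE 0.24, adjusted p = 0.0598) and was not called. It became called without THP1 library B or C at 1 ug/ml, or over genes with a mean of at least 5 FPKM, with adjusted p as low as 0.0249. BCL2L11 was lower in B11 than in THP1 at 1 ug/ml (-0.73, SE 0.24, adjusted p = 0.0294) although the libraries overlapped. This call was lost for BCL2L11 in 7 of 28 alternatives, among them without B11 libraries B and C together (-0.49, adjusted p = 0.387) and, leaving out 1 library, without THP1 library A (-0.70, adjusted p = 0.0781) or C (-0.49, adjusted p = 0.143) and without B11 library B (-0.60, adjusted p = 0.116) or C (-0.74, adjusted p = 0.0651), in a range of 0.00343 to 0.387. In untreated cells the lines differed in BCL2L11 by 0.01 (interval -0.49 to 0.52). MIR4435-2HG overlaps 727 exonic bases of BCL2L11 on the opposite strand, so its reads may enter these values.

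Because some members rose while others fell, the summed level of the 4 BH3-only genes moved less than its parts. The sum was 55.0 ± 3.65 FPKM (SD, n = 3) in untreated B11, 62.6 ± 4.98 at the low dose and 53 ± 2.24 at the high dose, against 48.1 ± 2.40 in untreated THP1. BMF made up 36.7% ± 2.18 of that sum in untreated B11, 9.34% ± 2.70 at the low dose and 4.89% ± 0.437 at the high dose, and its mean share was between 12.7% and 14.4% in the THP1 groups. PMAIP1 made up 12.5% ± 1.22, 37.0% ± 1.51 and 40.0% ± 1.71 in B11 in the same order, and between 30.7% and 42.2% in THP1. BBC3 made up 25.6% ± 3.17, 39.7% ± 2.87 and 40.5% ± 3.56 in B11 in that order, and between 20.8% and 25.1% in THP1. The level of PMAIP1 over that of BMF went from 0.342 ± 0.0395 in untreated B11 to 4.20 ± 1.32 at the low dose and 8.23 ± 0.895 at the high dose. BMF stood at 1.53 ± 0.115 times the level of BCL2 in untreated B11 and at 0.117 ± 0.00731 times at 10 ug/ml, with THP1 group means between 0.169 and 0.224. The sum of the 4 survival genes was 2.29 ± 0.125 times that of these 4 BH3-only genes in untreated B11. It was 2.39 ± 0.180 times at the low dose and 2.90 ± 0.156 times at the high dose, with THP1 means between 2.73 and 3.05. These sums leave out BID, a further BH3-only gene, at 81.8 FPKM in untreated B11 and 116 at 10 ug/ml, above the 4-gene sum in both. BID rose by 0.50 (SE 0.15, adjusted p = 0.0121), a call lost in 3 of 28 alternatives. In untreated THP1 it stood at 98.8 FPKM. The shares and ratios therefore hold for the listed genes only, describe RNA and carry no test.

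**Figure D2:**
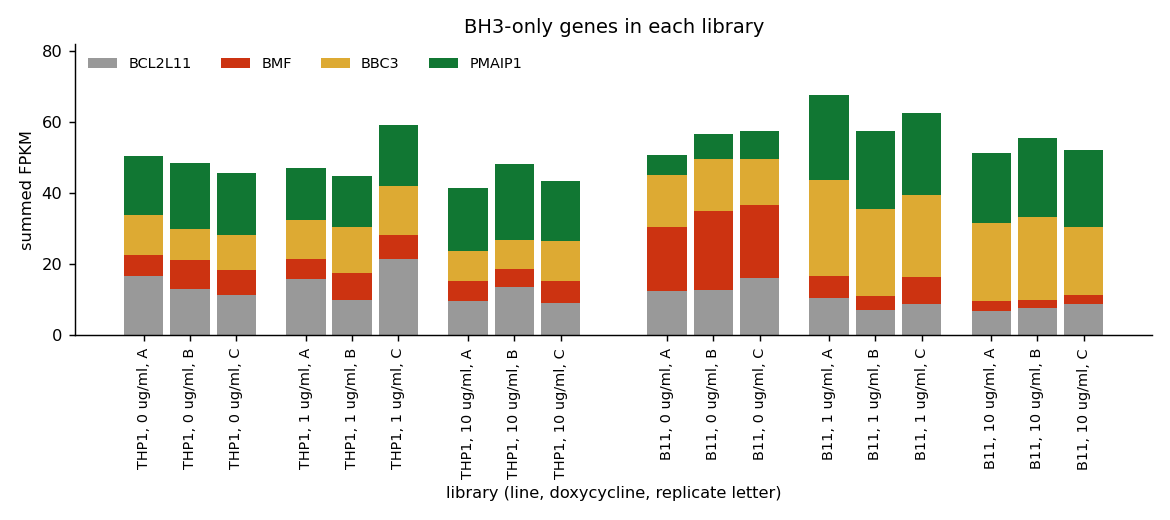
Stacked FPKM of the 4 BH3-only genes (vertical axis, from 0) in each of the 18 libraries, ordered by line and doxycycline dose. The red segment of BMF was 36.7% of the stack on average in untreated B11 and 4.89% at 10 ug/ml, while the green segment of PMAIP1 went from 12.5% to 40.0%. The segment of BBC3 went from 25.6% to 40.5% between the same groups.

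The sequences in front of the 3 BH3-only genes with the clearest changes are shown because their RNAs moved in different directions in the same cells. For 9 of the 10 members RefSeq on GRCh38.p14 gave a window before the start; MCL1 had none. Each run is given 5′ to 3′ on the strand of the gene, from 250 bases before the start to the last base outside any exon of GENCODE 29. Capitals mark matches, on either strand, to 6 motifs. The core of the cAMP response element, bound by factors of the ATF and CREB families, was searched as TGACG. The E-box, bound by MYC and related factors among others, was searched as CACGTG. The site of forkhead box O factors, which are held out of the nucleus by growth signals, was searched as GTAAACA. The AP-1 site, bound by FOS and JUN proteins, was searched as TGACTCA. The GC box, bound by SP factors, was searched as GGGCGG. The box bound by NF-Y was searched as CCAAT. The PMAIP1 window is chr18:59899746-59899947 on the plus strand, that of BMF chr15:40108893-40109129 on the minus strand, and that of BBC3 chr19:47232767-47232917 on the minus strand.
PMAIP1: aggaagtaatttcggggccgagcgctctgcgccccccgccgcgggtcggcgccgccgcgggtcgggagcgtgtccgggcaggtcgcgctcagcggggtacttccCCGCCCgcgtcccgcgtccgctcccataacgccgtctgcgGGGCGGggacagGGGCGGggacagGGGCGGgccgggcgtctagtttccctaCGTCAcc
BMF: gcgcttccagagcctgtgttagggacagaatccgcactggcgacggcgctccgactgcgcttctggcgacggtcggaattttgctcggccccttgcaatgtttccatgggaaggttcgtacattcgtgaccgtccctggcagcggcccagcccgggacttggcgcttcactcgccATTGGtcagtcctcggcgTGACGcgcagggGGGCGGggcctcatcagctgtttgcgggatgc
BBC3: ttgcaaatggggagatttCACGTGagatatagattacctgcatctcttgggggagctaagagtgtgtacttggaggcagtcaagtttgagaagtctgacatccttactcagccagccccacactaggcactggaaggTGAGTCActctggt

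PMAIP1 and BMF, which moved in opposite directions, both held the TGACG letters at like distances, starting 55 bases before the start in PMAIP1 (other strand) and 57 bases before it in BMF (gene strand). The TGACG letters occur in the 250 bases before 21.2% of the 34943 RefSeq starts, and in 5 of the 9 member windows: BCL2, BCL2L1, BMF, PMAIP1 and BAX. PMAIP1 held 4 GC boxes and BMF 1, letters found before 42.5% of starts. The BBC3 window held an E-box starting 232 bases before the start (6.32% of starts) and an AP-1 match 113 bases before it (4.22%). BAX held 4 E-boxes, of which the first shares 2 bases with a TGACG match. The GTAAACA letters, found before 2.98% of starts, occurred in the BCL2L11 window alone among the 9. CCAAT, found before 32.0% of starts, occurred in BMF, BBC3, BCL2L11, BAX and BAK1. The BBC3 match starts 87 bases before the start, beyond the end of the run shown, because all 250 bases were searched. A match is a run of letters in a window and shows no binding.

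The position of the genes adds a further description. PMAIP1 (chr18:59899948-59904306) and BCL2 (chr18:63123346-63320128) lie 3.22 Mb apart on the long arm of chromosome 18, and both were low in untreated B11 and higher with doxycycline. BBC3 (chr19:47220822-47232766) and BAX (chr19:48954815-48961798) lie 1.72 Mb apart on chromosome 19. Both were among the 6 of 9 tested members that rose in B11 at 10 ug/ml. Against untreated THP1, untreated B11 was higher in BBC3 (0.45) and lower in BAX (-0.31). BMF (chr15:40087890-40108892) lies 39.9 Mb from BCL2A1 (chr15:79960889-79971446). Coordinates of genes are those of GENCODE 29 on GRCh38. Whether the clone differs from THP1 in copy number at these places was not tested.

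Of the effectors, BAX was the most abundant of the 10 genes per length. Its libraries were at 217, 194 and 179 FPKM in untreated B11, at 260, 288 and 249 at 1 ug/ml, and at 251, 273 and 234 at 10 ug/ml. In THP1 they ran from 217 to 292 FPKM over the 9 libraries, with group means of 244, 233 and 253. Untreated B11 was the lowest group, although it overlapped with THP1 at 1 ug/ml. BAX rose 1.35-fold in B11 at 1 ug/ml (0.43, SE 0.10, adjusted p = 0.00385) and 1.28-fold at 10 ug/ml (0.36, SE 0.10, adjusted p = 0.011).

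The calls on BAX were near the threshold in several fits. At 10 ug/ml the call on BAX was lost without untreated B11 library C (0.29, adjusted p = 0.0534) or B11 library B at 10 ug/ml (0.30, adjusted p = 0.0526), in a range of 0.00113 to 0.0534, and at 1 ug/ml without libraries B and C of that group together (0.40, adjusted p = 0.0684, the highest of a range from 0.00037). Untreated B11 held 1.24-fold less BAX than untreated THP1 (-0.31, SE 0.10, adjusted p = 0.0214). That difference of BAX was not called without THP1 library B (-0.25, adjusted p = 0.0933), B11 library B (-0.30, adjusted p = 0.0524) or B11 library C (-0.25, adjusted p = 0.0936), in a range of 0.000753 to 0.0936. At 10 ug/ml the difference of BAX between the lines was not called and had an interval of -0.22 to 0.22.

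BAK1, the second pore-former, was at 21.8, 23.5 and 24.2 FPKM in untreated B11, at 27.6, 27.2 and 26.6 at 1 ug/ml, and at 30.7, 29.2 and 26.6 at 10 ug/ml. Its 9 THP1 libraries ran from 20.2 to 23.9 FPKM. All 6 treated B11 libraries lay above all 12 others. BAK1 rose 1.25-fold in B11 at 10 ug/ml (0.30, SE 0.08, adjusted p = 0.00557) and 1.17-fold at 1 ug/ml (0.22, SE 0.08, adjusted p = 0.0378). The smaller call on BAK1 was lost in 8 of 28 alternatives, with adjusted p from 0.00888 to 0.168: in the fit on the 2 groups, with a replicate block, without both libraries B and C of the low dose (0.25, adjusted p = 0.168), and without untreated B11 A (0.18) or B (0.23) or any library at 1 ug/ml (0.21, 0.22 and 0.24 without A, B and C). Against THP1, BAK1 was higher in B11 at 10 ug/ml by 0.42 (SE 0.08, adjusted p = 0.000779) and was not called at 1 ug/ml (0.21, adjusted p = 0.0565) or untreated (0.06). BAK1 shares 91 exonic bases with GGNBP1 on the opposite strand.

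Set against the parent at equal dose, BCL2 was lower and BBC3 higher in the clone at each of the 3 doses, and the other called members varied with dose. Without doxycycline 5 of 9 members were called, BMF and BBC3 higher and BCL2, PMAIP1 and BAX lower, where 47.1% of all genes tested were called. At 1 ug/ml 5 were called, MCL1, BBC3 and PMAIP1 higher and BCL2 and BCL2L11 lower, where 29.8% were called. At 10 ug/ml 6 were called, MCL1, BBC3 and BAK1 higher and BCL2, BCL2L1 and BMF lower, where 32.4% were called. The shares of members called were 5, 5 and 6 of 9 beside those backgrounds. These comparisons use the same libraries as the dose comparisons.

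**Figure D3:**
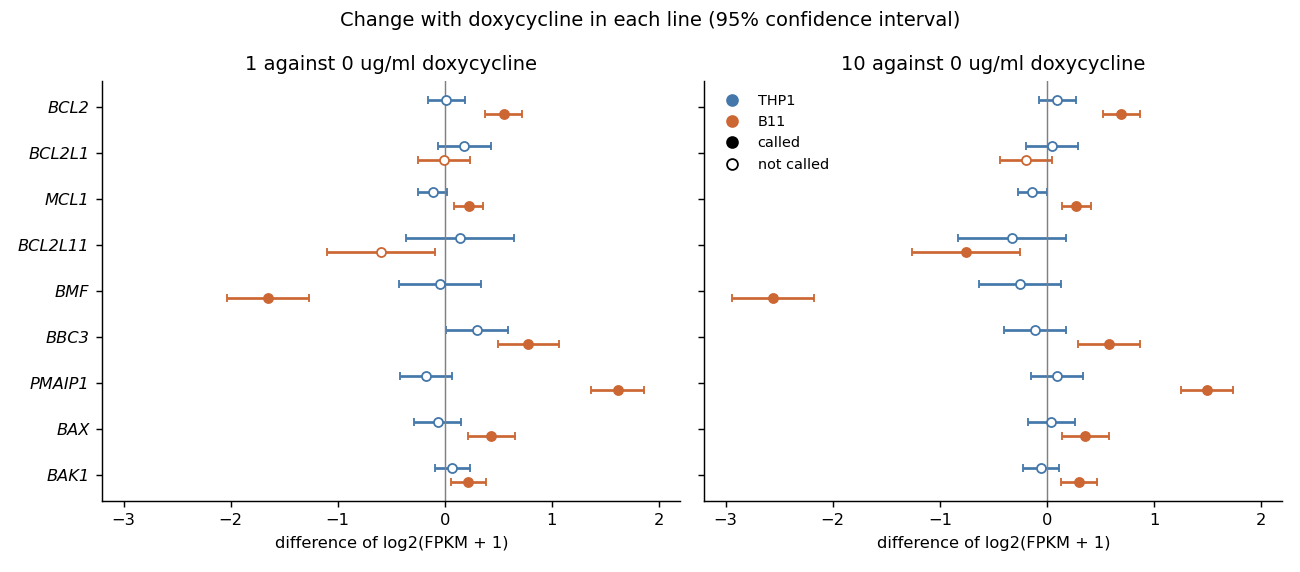
Difference of mean log2(FPKM + 1) from 0 ug/ml (horizontal axis) for the 9 tested genes, at 1 ug/ml on the left and 10 ug/ml on the right, with 95% confidence intervals; THP1 is blue, B11 orange, and filled points were called. The THP1 points were all open, whereas in B11 BMF lay at -1.66 and -2.56 and PMAIP1 at 1.62 and 1.49.

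Whether the dose response of the clone differed from that of the parent was tested directly, as the change in B11 minus the change in THP1. At 10 against 0 ug/ml this difference was called for 6 of 9 members, BCL2, MCL1, BBC3, PMAIP1 and BAK1 positive and BMF negative, where 29.8% of all genes tested were called. At 1 against 0 ug/ml it was called for 5, BCL2, MCL1, PMAIP1 and BAX positive and BMF negative, where 25.9% were called. The difference of BAX was not called in 5 of 28 alternatives, with adjusted p from 0.00304 to 0.0985: without B11 libraries B and C at 1 ug/ml together (0.47, the highest p), or without B11 library B at 1 ug/ml (0.44), untreated B11 library C (0.43), untreated THP1 library B (0.44) or THP1 library A at 1 ug/ml (0.45). That of BAK1 at 10 ug/ml was not called in 7 of 28, with adjusted p up to 0.0673. At 10 against 1 ug/ml it was called for 0 of 9 in limma, with 2 at an unadjusted p under 0.05, where 4.64% were called. BMF had the largest of these differences at 10 ug/ml (-2.31, SE 0.25, adjusted p = 6.75e-06) and PMAIP1 at 1 ug/ml (1.79, SE 0.16, adjusted p = 1.22e-06). For BCL2L1 and BCL2L11 the difference was not called at either dose, with intervals at 10 ug/ml of -0.59 to 0.10 and -1.14 to 0.28.

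Other genes of cell death were followed as 8 lists by function, and they carry no test as lists. Each count in B11 at 10 against 0 ug/ml stands beside the 42.8% of all genes tested that were called there. Of 13 further family members, 9 passed the filter, and in B11 at 10 against 0 ug/ml 4 were higher and 0 lower, a share near those 42.8%. Among them, BOK, a BAX-like protein, rose from 1.16 to 4.80 FPKM (1.43, SE 0.17, adjusted p = 9.31e-06), and BCL2L12 rose from 43.9 to 94.0 FPKM (1.13, SE 0.22, adjusted p = 0.000675). Of the 18 genes of the apoptosome, caspases and mitochondrial death factors, 8 were higher and 5 lower, beside 42.8% of all genes in either direction. CYCS, which encodes the cytochrome c released through BAX and BAK1 pores, rose from 63.8 to 168 FPKM (1.39, SE 0.12, adjusted p = 3.24e-07). VDAC1, a channel of the outer mitochondrial membrane, rose from 150 to 394 FPKM (1.39, SE 0.10, adjusted p = 3.19e-08).

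Genes that restrain caspases moved in both directions. Of 9 inhibitors of apoptosis and of caspase 8, 8 were tested, and 1 was higher and 4 lower in B11 at 10 ug/ml, where 42.8% of all genes were called. BIRC5, the gene of survivin, which also serves in cell division, rose from 9.63 to 76.8 FPKM in B11 (2.90, SE 0.13, adjusted p = 2.65e-10) and was at 90.7 in untreated THP1. NAIP, an inhibitor of apoptosis that also senses bacterial proteins, fell from 39.4 to 3.25 FPKM (-3.25, SE 0.16, adjusted p = 5.98e-10) and was at 3.95 in untreated THP1. CFLAR, which encodes the caspase 8 inhibitor FLIP, fell from 39.5 to 18.5 FPKM (-1.08, SE 0.18, adjusted p = 0.000222).

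Of the 11 tested of 13 death receptors and adaptors, 2 were higher and 6 lower in B11 at 10 ug/ml, again beside 42.8% of all genes. The lower genes included the necroptosis kinase RIPK3, from 33.2 to 10.2 FPKM (-1.65, SE 0.17, adjusted p = 2.01e-06), and its substrate MLKL, from 24.8 to 7.29 FPKM (-1.65, SE 0.23, adjusted p = 2.81e-05). TNFRSF10A, a receptor for TRAIL, rose from 2.72 to 11.8 FPKM (1.78, SE 0.33, adjusted p = 0.000438). The list medians were 0.17 for the further family members, 0.20 for the caspase list, -0.53 for the inhibitors and -0.31 for the receptors, beside -0.02 over all genes tested.

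Lists of known regulators of the BH3-only genes were also counted in B11 at 10 against 0 ug/ml. ATF4 and CHOP can switch on PMAIP1 and BBC3. In the list of the ATF4 and CHOP arm, 9 of 10 genes were higher and 0 lower, where 42.8% of all genes were called. The median change of the list was 1.05. ERN1 and XBP1 are on this list but belong to a separate arm of the stress response of the endoplasmic reticulum. TRIB3 rose from 16.6 to 99.0 FPKM (2.55, SE 0.15, adjusted p = 3.2e-09), DDIT4 from 12.5 to 71.6 (2.41, SE 0.15, adjusted p = 5.82e-09) and XBP1 from 50.2 to 142 (1.50, SE 0.10, adjusted p = 1.31e-08). At 1 against 0 ug/ml 9 of these 10 were also higher, with a median of 2.04, where 37.1% of all genes were called. At 10 against 1 ug/ml 6 were lower and 0 higher, where 12.8% were called. For the change in B11 minus that in THP1, 4 of the 10 were higher and 0 lower at 10 against 0 ug/ml, where 29.8% were called. At 1 against 0 ug/ml 9 were higher and 0 lower by that measure, where 25.9% were called.

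Of 14 tested among 15 genes for p53 and its targets, 4 were higher and 3 lower, with a median of -0.09, a share near the 42.8% of all genes called. CDKN1A, a cell cycle inhibitor, rose from 10.4 to 29.5 FPKM (1.41, SE 0.11, adjusted p = 1.14e-07), whereas TP53I3 fell from 14.7 to 5.24 FPKM (-1.32, SE 0.19, adjusted p = 5.04e-05). Of 12 FOXO factors and targets, 2 were higher and 5 lower, with a median of -0.32, beside the same 42.8%. TXNIP, a negative regulator of glucose uptake, fell from 713 to 111 FPKM (-2.67, SE 0.09, adjusted p = 1.52e-11), and FOXO3, whose protein can drive BCL2L11 and BBC3, fell from 6.31 to 3.31 (-0.76, SE 0.13, adjusted p = 0.000198). KLF2 rose from 20.0 to 41.6 FPKM (1.01, SE 0.17, adjusted p = 0.000155).

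Of 13 tested among 15 genes for the turnover of MCL1 and of BIM, 4 were higher and 1 lower, with a median of 0.07, a share below the 42.8% of all genes called. DUSP6, a phosphatase of ERK, the kinase that marks BIM for decay, rose from 1.67 to 21.0 FPKM (3.04, SE 0.14, adjusted p = 2.35e-10) and was at 42.1 in untreated THP1. YWHAZ, a 14-3-3 protein, rose from 232 to 300.5 FPKM (0.37, SE 0.06, adjusted p = 7.48e-05).

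In THP1 at 10 against 0 ug/ml, 4 genes of the 8 lists were called, and all 4 were lower. There 1.02% of all genes tested were called, 17 higher and 162 lower. CDKN1A fell from 31.7 to 16.9 FPKM (-0.87, SE 0.11, adjusted p = 0.0014) and KLF2 from 12.1 to 4.14 FPKM (-1.37, SE 0.17, adjusted p = 0.000816), the opposite direction from B11. The call on KLF2 was lost in a fit on the 2 groups alone (adjusted p = 0.0681, in a range of 0.000354 to 0.0681). KLF6 (-0.96, adjusted p = 0.0313) and DDIT4 (-0.68, adjusted p = 0.0433) lost their calls in 8 and 19 of 28 alternatives, with adjusted p up to 0.309 for KLF6 and 0.223 for DDIT4. For KLF6 these included leaving out untreated THP1 A or B or any THP1 library at 10 ug/ml; for DDIT4, any THP1 library at 0 or 1 ug/ml, THP1 B or C at 10 ug/ml, untreated B11 C, any B11 library at 1 ug/ml or B11 A at 10 ug/ml. In the 5 other lists none was called; BID, VDAC1, BIRC5, TNFRSF1A and DYNLL1, the most abundant of each, changed by 0.07, -0.00292, -0.07, -0.03 and 0.03.

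**Figure D4:**
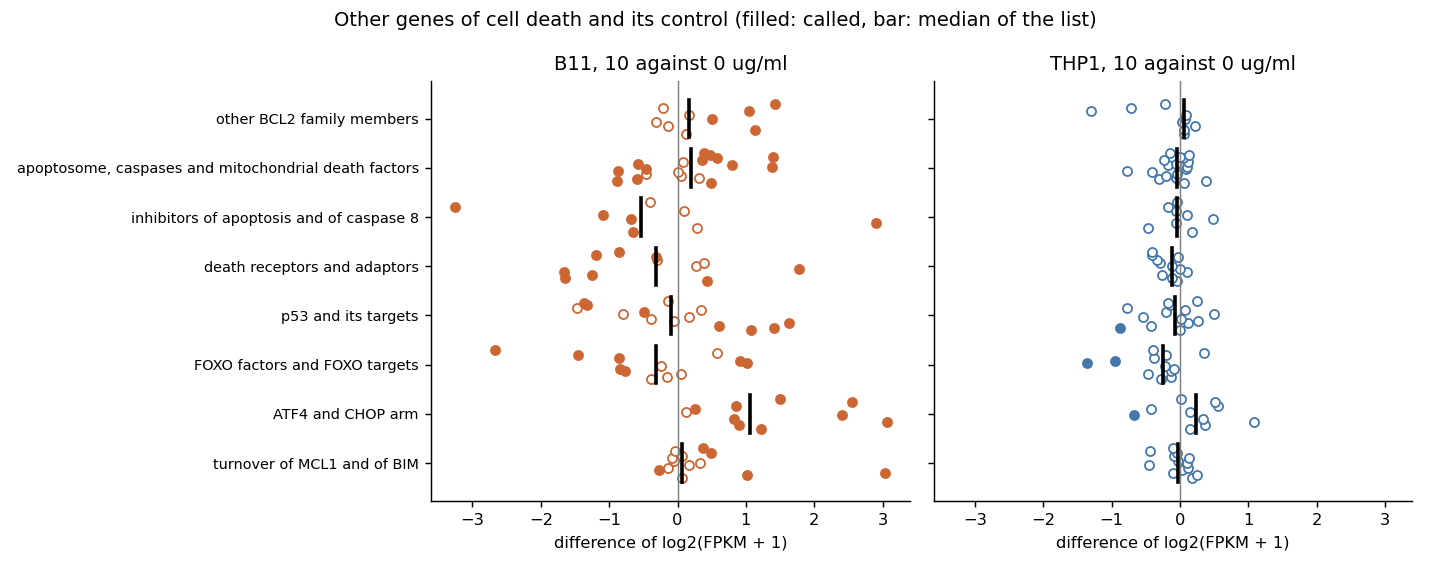
Difference of mean log2(FPKM + 1) at 10 against 0 ug/ml (horizontal axis) for each tested gene of the 8 lists, B11 on the left and THP1 on the right; filled points were called and the black bar is the list's median. In B11 the list of the ATF4 and CHOP arm had a median of 1.05 and that of the inhibitors -0.53, and in THP1 4 points were filled.

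In untreated cells, the clone and the parent differed in several of the same death genes, in comparisons that share the untreated B11 libraries with those above. BIRC5 was lower in B11 (-3.13, SE 0.13, adjusted p = 8.76e-11), NAIP higher (3.04, SE 0.16, adjusted p = 9.94e-10) and CYCS lower (-1.47, SE 0.12, adjusted p = 1.53e-07). RIPK3 was higher in B11 (1.13, SE 0.17, adjusted p = 7.43e-05), as was RIPK1 (1.49, SE 0.12, adjusted p = 1.32e-07). Of all genes tested 47.1% were called between the untreated lines. Of the 10 genes on the list of the ATF4 and CHOP arm, 1 was higher, ERN1, and 5 were lower, among them TRIB3 (-1.38, SE 0.15, adjusted p = 2.09e-06). Of the 12 genes of the FOXO list 6 were higher and 1 lower, with FOXO4 at 14.9 against 4.75 FPKM (1.43, SE 0.28, adjusted p = 0.000613).

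For 4 members the group means spanned at least 1 on the log2(FPKM + 1) scale, and for each the nearest patterns among 10293 protein-coding genes were found by the root mean square difference of the 6 centred group means. For BCL2 they were TTLL12 (0.022) and CAMK2D (0.031), for PMAIP1 NDST1 (0.037) and AC005832.4 (0.093), for BMF TNFSF13 (0.075) and METTL7A (0.133), and for BBC3 NOTUM (0.074) and PPP3CB (0.082). TNFSF13, for example, stood at 55.7, 15.3 and 7.48 FPKM in B11 at 0, 1 and 10 ug/ml and between 14.7 and 17.6 in THP1, beside 20.2, 5.89 and 2.58 FPKM for BMF in B11. TTLL12 stood at 25.9, 38.3 and 43.0 FPKM in B11 and between 57.7 and 64.6 in THP1. These are 6 group means per gene, chosen as the nearest of many, and are a description.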

How the data were processed

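RNA of 18 plates was sequenced. The deposited table holds 1 FPKM value per Ensembl gene ID and library. HISAT2, Cuffnorm and GRCh38 are named by the submitters' processing notes. Versions, annotation release and Cuffnorm's scaling option are not given in these sources. No header states the unit: FPKM rests on those notes and on the values, which sum to 1008594 to 1200682 per library. No read counts were used, so depth (10.6 to 15.4 M fragments) is an estimate from low values and did not enter the fit. GENCODE 29 named 57047 of 60658 IDs.

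The 17555 genes that reached 1 FPKM in 3 or more libraries were taken as log2(FPKM + 1), which understates changes of low genes. limma 3.58.1 (R 4.3.3) fitted the 6 group means together, using the intensity trend, with 12 residual degrees of freedom, and was tested on simulated data first. Benjamini-Hochberg adjustment was made inside each of 12 comparisons. Where a fold is printed, it is the ratio of mean FPKM. Figures were drawn with matplotlib 3.10.9.

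Members and lists were chosen with earlier results of these data known. All members were named; from each list, up to 4 called genes with the smallest p, or the most abundant where none was called. Promoter windows came from RefSeq on GRCh38.p14, using the outermost start of each gene. Across all genes, plates with the same letter did not deviate together (correlations of -0.07 to 0.09 over 45 pairs), and the main fit had no block. A correlation over all genes cannot show whether single genes vary with the letter. Alternatives were other pseudocounts (0.1 and 5), filters, scalings, variance settings, a replicate block, and libraries left out.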

Additional observations from a re-analysis of the deposited data

Results flagged for a closer look

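The dose response of a member differed between the clone and its parent, by a test of the difference itself in limma, in 11 cases. Of all genes tested, 29.8% were called for that difference at 10 against 0 ug/ml and 25.9% at 1 against 0 ug/ml. Both comparisons use the same untreated libraries, and several members are listed at both doses. At 10 against 0 ug/ml the change in B11 minus the change in THP1 was 0.60 for BCL2 (adjusted p = 0.00104), 0.41 for MCL1 (adjusted p = 0.00284), -2.31 for BMF (adjusted p = 6.75e-06), 0.69 for BBC3 (adjusted p = 0.0128), 1.40 for PMAIP1 (adjusted p = 1.23e-05) and 0.36 for BAK1 (adjusted p = 0.0243). At 1 against 0 ug/ml it was 0.54 for BCL2 (adjusted p = 0.0028), 0.34 for MCL1 (adjusted p = 0.0116), -1.61 for BMF (adjusted p = 0.000245), 1.79 for PMAIP1 (adjusted p = 1.22e-06) and 0.50 for BAX (adjusted p = 0.0199). The BAK1 difference at 10 ug/ml was not called in 7 of 28 alternatives, with adjusted p from 0.0107 to 0.0673: in the fit on the 4 groups alone, and without THP1 library B (0.34) or C (0.31) at 0 ug/ml, THP1 library C at 10 ug/ml (0.33), B11 library A at 0 ug/ml (0.31) or B11 library A (0.31) or B (0.35) at 10 ug/ml. The BAX difference at 1 ug/ml was not called in 5 of 28, with adjusted p from 0.00304 to 0.0985: without THP1 library B at 0 ug/ml (0.44), THP1 library A at 1 ug/ml (0.45), B11 library C at 0 ug/ml (0.43), B11 library B at 1 ug/ml (0.44), or B11 libraries B and C at 1 ug/ml together (0.47).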

How the results depend on the processing

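Over 28 alternatives, 31 of the 43 called member values kept their call in all of them, 12 lost it in at least 1, and 0 changed sign; 7 of 65 uncalled values gained a call. Members called in B11 at 1 against 0 ug/ml went from 7 to 4 without both B11 libraries, B and C, of that dose, which leaves 1 library in that group, assumed to vary like the others. Between 10 and 1 ug/ml in B11 the count was 1, and 0 in the fit on those groups alone, which has fewer samples. Leaving out 1 library gave 3 to 5 members called between untreated B11 and THP1 (3 without THP1 library B), where the main fit called 47.1% of all genes. For the difference of response at 10 against 1 ug/ml it gave 0 to 1 (1, BMF, without B11 library B at 1 ug/ml), beside 4.64%. With a replicate block, the members called at 10 against 0 ug/ml in B11 were 8 and at 1 ug/ml 6, beside 42.8% and 37.1% of all genes in the main fit. The count for the difference of response at 10 ug/ml was 7 with that block, beside 29.8%. Over the alternatives, all-gene counts ran from 6089 to 8599 around 8269 between the untreated lines. They ran from 5725 to 7591 around 7520 for B11 at 10 against 0 ug/ml.

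Over all genes tested, counts moved by over 1.5 times without those B11 libraries B and C: from 6516 to 4053 for B11 at 1 against 0 ug/ml, from 2249 to 601 at 10 against 1, from 5231 to 2687 between the lines at 1 ug/ml and from 814 to 230 for the difference of response at 10 against 1. In THP1 they ranged from 46 to 220 around 179 at 10 against 0 ug/ml, from 0 to 23 around 2 at 1 against 0 and from 11 to 113 around 52 at 10 against 1. The cause was not tested. Depth limits BCL2A1, which rests on at most an estimated 12.6 fragments.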
